A study of Homo sapiens with 6 samples.

Results

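The genes described are 41 histone lysine methyltransferases and partners of their complexes, measured in 8505C cells after silencing of POLR1F. They were picked by name from a table of 33539 genes, and each of the 41 names matched 1 gene. The list was chosen by gene family with values of this same comparison already known, so the members' changes are given as a description and their count supports nothing by itself. Poly(A) RNA was sequenced from 3 libraries of cells in which siRNA silenced POLR1F for 24 h (siPOLR1F). It was also sequenced from 3 libraries of cells given control siRNA (NC), whose names read si NC and also carry 24 h. The letters NC are not spelled out in the labels. 8505C is an established line of anaplastic thyroid cancer, grown here in medium with 10% serum, and the product of POLR1F belongs to RNA polymerase I, which makes ribosomal RNA. The labels give no siRNA sequence, and all 6 libraries carry the same batch label.

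Methyl groups on histone lysines mark the state of chromatin, and each site has its own enzymes, most of them built around a SET domain. Methylation of histone H3 lysine 4 (H3K4) marks promoters and enhancers and is laid down by the KMT2 and SETD1 enzymes, which work inside COMPASS complexes with the shared subunits WDR5, RBBP5, ASH2L and DPY30. H3K9 methylation, and H3K27 methylation by Polycomb repressive complex 2 (PRC2), accompany silencing. H3K36 and H3K79 methylation mark transcribed gene bodies, and H4K20 methylation is tied to the cell cycle and compact chromatin.

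The libraries held between 60576788 and 63038378 counts, of which mitochondrially encoded genes took 4.32% to 4.85% in siPOLR1F and 4.93% to 5.15% in NC. POLR1F itself was at 2.09, 1.42 and 1.51 FPKM (the deposited level, fragments scaled to gene length and library depth) in siPOLR1F, against 8.80, 8.42 and 7.64 FPKM in NC (log2 fold change -2.30, SE 0.15; edgeR adjusted p = 9.76e-05). Of 7 thyroid markers 6 were in the table, and their summed level was 26.6 to 29.8 FPKM in siPOLR1F and 42.9 to 47.6 FPKM in NC. NKX2-1 was at 25.7 to 28.8 FPKM in siPOLR1F and 41.8 to 47.2 FPKM in NC, while TG, TSHR and SLC5A5 were at or near 0 in both groups. The 5 epithelial markers, nearly all KRT8 and KRT18, summed to 227 to 257 FPKM in siPOLR1F and 267 to 299 FPKM in NC. The 3 endothelial markers summed to 2.36 to 4.79 FPKM in siPOLR1F and 5.62 to 6.75 FPKM in NC, with CDH5 apart between the groups and PECAM1 and VWF overlapping. Of 3 mesenchymal markers FN1 was lower, at 33.4 to 43.2 FPKM in siPOLR1F and 48.6 to 53.9 FPKM in NC. CDH2 went the other way without overlap, at 13.9 to 14.8 FPKM in siPOLR1F and 13.2 to 13.7 FPKM in NC. VIM overlapped, at 665 to 686 FPKM in siPOLR1F and 639 to 695 FPKM in NC, as did the sum of the 3 markers. The 4 fibroblast markers summed to 1.64 to 1.99 FPKM in siPOLR1F and 1.84 to 2.63 FPKM in NC. The part of these markers in the results was not tested. Of 5 leukocyte markers 3 were in the table, with a sum of 12 to 18.5 FPKM in siPOLR1F and 9.73 to 14.5 FPKM in NC, mostly CD68 (9.94 to 15.7 FPKM in siPOLR1F and 7.51 to 12.4 FPKM in NC), while PTPRC reached at most 0.00907 FPKM in siPOLR1F and 0.00618 FPKM in NC. Whether replicates were grown as separate cultures is not in the labels, so each p-value reflects only library-to-library spread, and that spread may be technical. A lower RNA level in fewer cells cannot be told apart here from a lower level in every cell.

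All 7 genes grouped here as H3K4 methyltransferases were called higher in siPOLR1F by edgeR, beside 10.3% of all tested genes. This grouping was made with earlier results of these data known, so the count depends on it. KMT2E (log2 fold change -0.06), which shares the KMT2 name, and SMYD3 (0.03) were placed in another group and were not called. DOT1L, the enzyme of H3K79, and the H3K9 enzymes EHMT1 and SUV39H2 were also called higher. The 4 core genes of PRC2 and the 5 H3K36 enzymes did not pass the test. Every member exceeded the minimum level for testing (a mean of 0.5 FPKM over the 6 libraries), with 336 to 19149 counts per gene and library. Over the 13564 genes tested with edgeR's quasi-likelihood test (Benjamini-Hochberg adjusted p under 0.05 over all of them), 12 of the 41 members were called higher, beside 10.3% of all tested genes, and 0 were called lower, beside 6.94% of all tested genes. At an unadjusted p under 0.05, 15 members were higher and 2 lower. DESeq2 called 13 members higher and limma 9, with 7 and 5 H3K4 enzymes among them, and both called 0 lower. With limma on log2(FPKM + 1), KMT2C (limma adjusted p = 0.163) and SETD1B (0.0589) did not pass. Without siPOLR1F replicate 1 the count of members called higher was 7, and without siPOLR1F replicate 3 it was 6, with 4 H3K4 enzymes among them each time. The median log2 fold change was 0.14 over the members and -0.01 over all tested genes. The 3 siPOLR1F values lay above the 3 NC values without overlap in 17 members, beside 18.9% of all tested genes, and below them in 3 members, KMT5C, ASH2L and SMYD2, beside 19.0%. Since the list was drawn up with this comparison known, nothing is read from these shares.

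**Figure D1:**
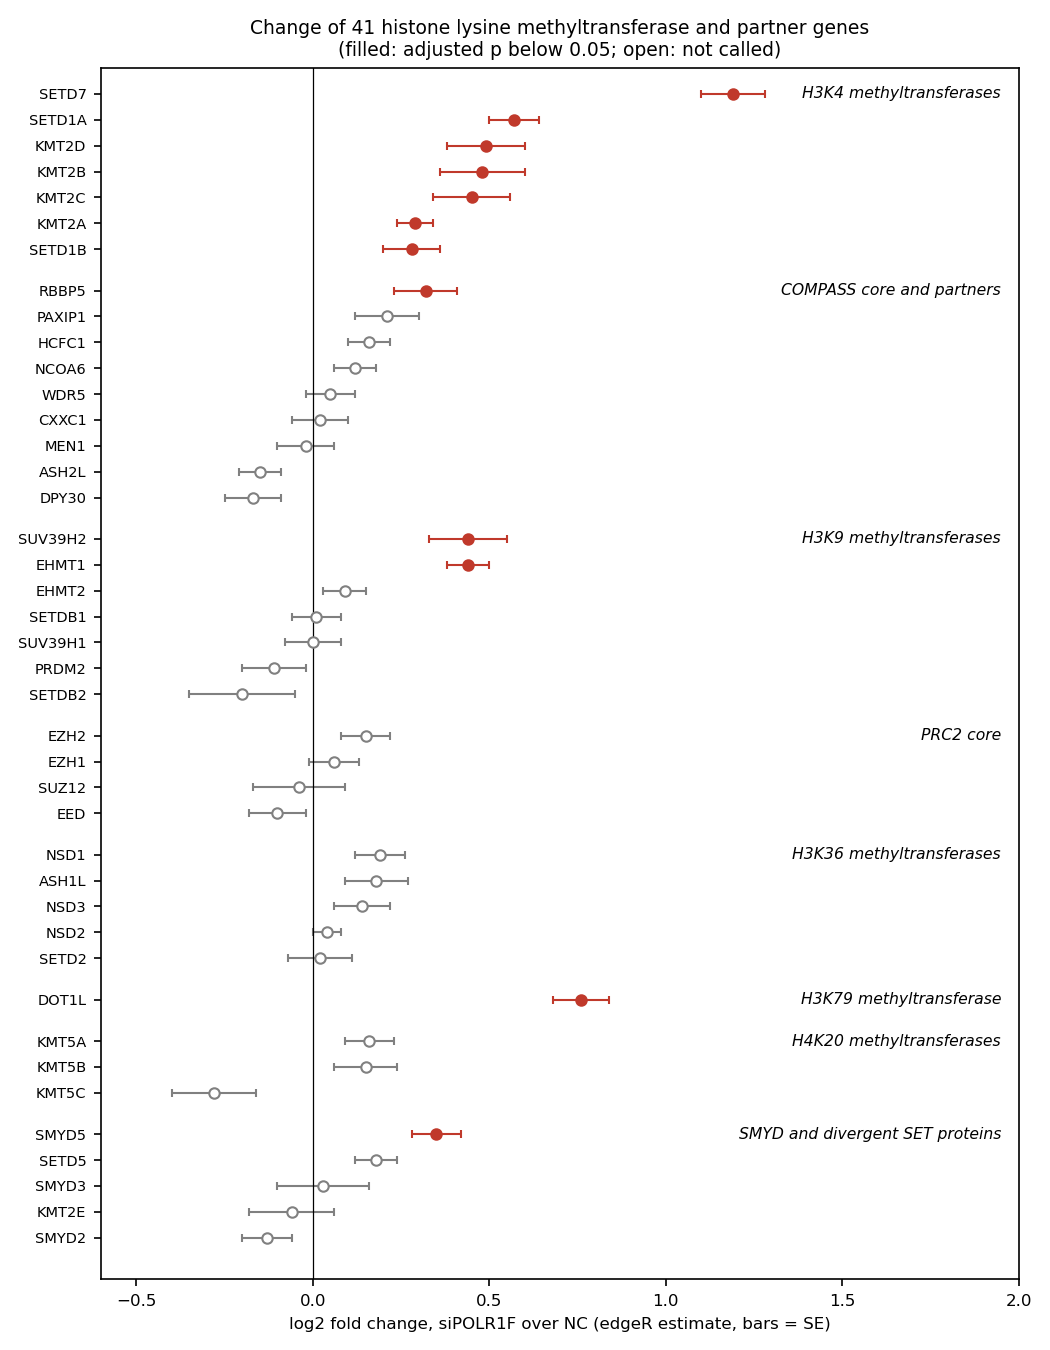
Log2 fold change of each of the 41 genes, siPOLR1F over NC, by role (edgeR estimate; bars are the SE; 3 libraries per group). Filled points passed an adjusted p of 0.05 over 13564 genes. The 7 H3K4 enzymes lie between 0.28 and 1.19 and the 4 PRC2 genes between -0.10 and 0.15.

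Among the H3K4 enzymes the largest difference was that of SETD7 (ENSG00000145391, GRCh38 chr4:139495941-139606699, minus strand), which adds a single methyl group to H3K4 and also methylates many proteins other than histones. SETD7 was at 8.49, 7.59 and 8.01 FPKM in siPOLR1F, against 3.88, 3.59 and 3.15 FPKM in NC. Each siPOLR1F library held at least 7423 counts of it and each NC library at most 3802. The level was 2.28 times that of NC (log2 fold change 1.19, SE 0.09; edgeR adjusted p = 0.000151), the largest rise and the largest change in either direction among the 41 genes.

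SETD1A (ENSG00000099381, chr16:30957754-30984664, plus strand) and SETD1B (ENSG00000139718, chr12:121804009-121832656, plus strand) are the catalytic subunits of the SETD1 complexes, which place most H3K4 trimethylation at promoters. SETD1A was at 8.68, 9.07 and 8.83 FPKM in siPOLR1F, against 5.57, 6.38 and 6.11 FPKM in NC (log2 fold change 0.57, SE 0.07; edgeR adjusted p = 0.00129). For SETD1B the values were 4.42, 4.53 and 4.35 FPKM in siPOLR1F and 3.43, 4.0 and 3.57 FPKM in NC (log2 fold change 0.28, SE 0.08; edgeR adjusted p = 0.0353). The groups did not overlap for either gene. The SETD1B call ended without NC replicate 1 (edgeR adjusted p = 0.0894), NC replicate 3 (0.107), siPOLR1F replicate 1 (0.0875), replicate 2 (0.105) or replicate 3 (0.0885), and its adjusted p ran from 0.00838 to 0.107 over all alternatives.

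The 4 KMT2 enzymes of H3K4 rose as well. KMT2A (ENSG00000118058, chr11:118436456-118526832, plus strand), the MLL gene rearranged in leukaemia, was at 4.95, 4.60 and 4.75 FPKM in siPOLR1F, against 3.76, 4.01 and 3.99 FPKM in NC (log2 fold change 0.29, SE 0.05; edgeR adjusted p = 0.00992). KMT2B (ENSG00000272333, chr19:35717973-35738880, plus strand), its closest relative and like it a partner of menin, was at 8.64, 8.38 and 8.53 FPKM in siPOLR1F, against 4.83, 6.53 and 7.11 FPKM in NC (log2 fold change 0.48, SE 0.12; edgeR adjusted p = 0.0300). NC replicate 1 was the lowest library for both genes, and without it the log2 fold change of KMT2B was 0.33.

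KMT2D (ENSG00000167548, chr12:49018975-49060794, minus strand) and KMT2C (ENSG00000055609, chr7:152134922-152436644, minus strand) are the enzymes of enhancer H3K4 monomethylation. KMT2D was at 4.79, 4.73 and 5.00 FPKM in siPOLR1F, against 2.79, 3.90 and 3.72 FPKM in NC (log2 fold change 0.49, SE 0.11; edgeR adjusted p = 0.0198). Without NC replicate 1, again the lowest library, its log2 fold change was 0.35. KMT2C was at 0.968, 0.762 and 0.727 FPKM in siPOLR1F, against 0.612, 0.594 and 0.603 FPKM in NC (log2 fold change 0.45, SE 0.11; edgeR adjusted p = 0.0270), and siPOLR1F replicate 1 stood above the other two siPOLR1F libraries. Without that library its log2 fold change was 0.30 (edgeR adjusted p = 0.0415). KMT2C shares sequence with partial copies elsewhere in the genome, so its counts are uncertain. Leaving out 1 library ended 3 of these calls. KMT2B did not pass without siPOLR1F replicate 1 (edgeR adjusted p = 0.0837), replicate 2 (0.0688) or replicate 3 (0.0841), within 0.00037 to 0.136 over its alternatives. KMT2D did not pass without siPOLR1F replicate 1 (0.0570) or replicate 3 (0.0691), within 6.55e-05 to 0.105. KMT2C did not pass without NC replicate 1 (0.0576), replicate 2 (0.0678) or replicate 3 (0.0744), within 0.000745 to 0.168.

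**Figure D2:**
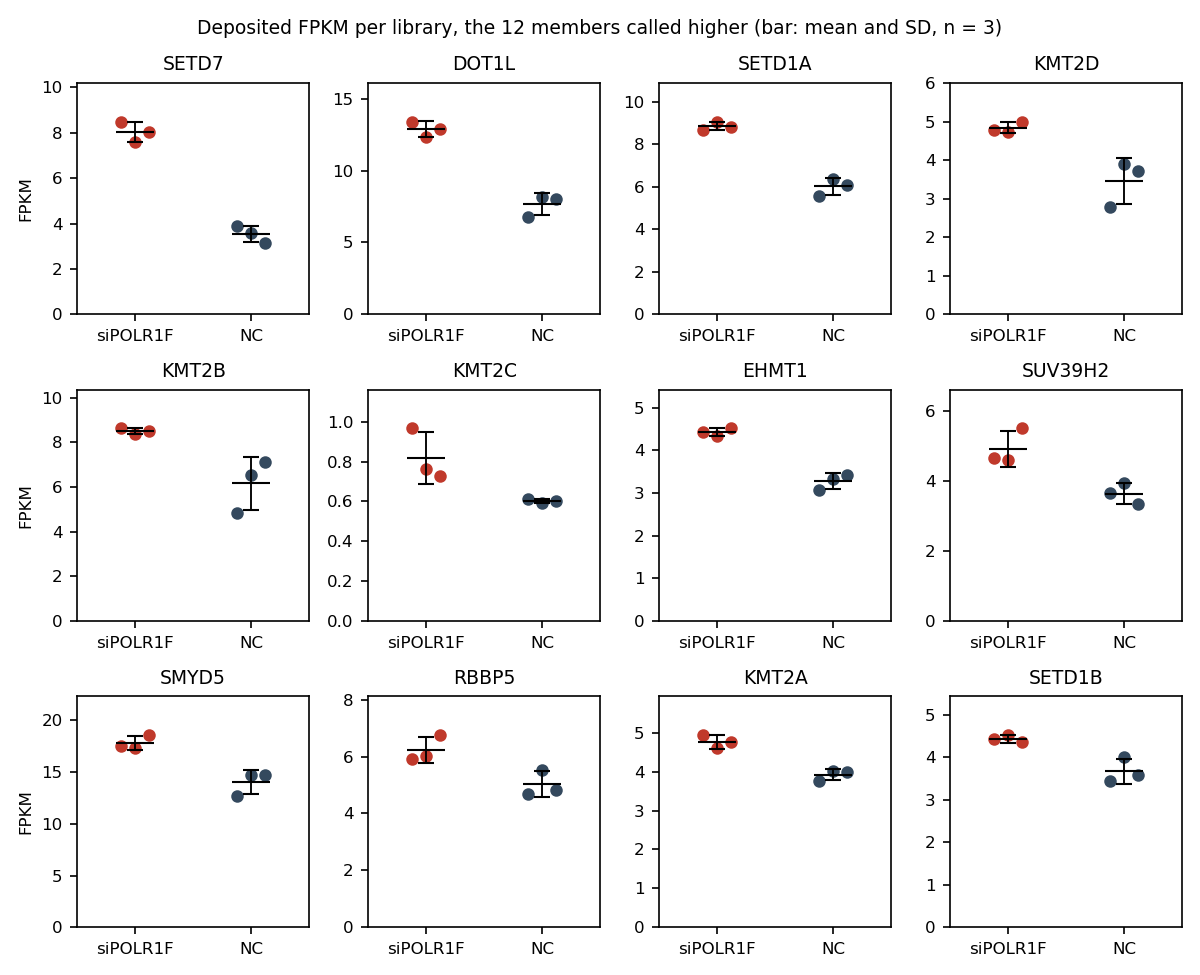
Deposited FPKM of the 12 genes called higher, 1 point per library, with the mean and SD (n = 3 per group; each axis starts at 0). In each panel the 3 siPOLR1F libraries lie above the 3 NC libraries, for SETD7 at 7.59 to 8.49 against 3.15 to 3.88 FPKM.

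Of the 9 core and partner genes of COMPASS 1 was called higher and 0 lower, beside 10.3% and 6.94% of all tested genes (at an unadjusted p under 0.05, 2 were higher and 1 lower; DESeq2 called 1 higher and limma 0), and the group's median log2 fold change was 0.05. RBBP5 (ENSG00000117222, chr1:205086142-205122015, minus strand), a core subunit that helps activate the SET domain, was at 5.90, 6.02 and 6.77 FPKM in siPOLR1F, against 4.70, 5.54 and 4.83 FPKM in NC (log2 fold change 0.32, SE 0.09; edgeR adjusted p = 0.0441). The call ended without NC replicate 1 (0.107), NC replicate 3 (0.124), siPOLR1F replicate 1 (0.0736), replicate 2 (0.0799) or replicate 3 (0.149), and ran from 0.0132 to 0.149 over the alternatives. WDR5 (ENSG00000196363, chr9:134135365-134141974, plus strand), the scaffold subunit and the most abundant member in NC, was at 27.7, 28.4 and 31.3 FPKM in siPOLR1F, against 26.8, 30.5 and 27.5 FPKM in NC, and the groups overlapped (log2 fold change 0.05, SE 0.07; edgeR adjusted p = 0.662). The other two core subunits had negative estimates that did not pass, with -0.15 for ASH2L (SE 0.06; edgeR adjusted p = 0.124) and -0.17 for DPY30 (SE 0.08; edgeR adjusted p = 0.193). DPY30 shares 143228 bases of its locus with MEMO1 on the same strand, so reads may be divided between these genes.

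None of the 5 partners that belong to only some COMPASS complexes passed the test. Over all tested genes 10.3% were called higher and 6.94% lower, so this count among 5 genes says little. HCFC1, a chromatin-bound cofactor of the SETD1 and KMT2 enzymes, was at 14.9, 14.1 and 15 FPKM in siPOLR1F, against 12.7, 13.7 and 13.0 FPKM in NC, without overlap (log2 fold change 0.16, SE 0.06; edgeR adjusted p = 0.0795). MEN1, which encodes menin and tethers KMT2A and KMT2B, was at -0.02, and CXXC1, the subunit that carries SETD1 complexes to unmethylated CpG sites, at 0.02. PAXIP1 and NCOA6, which occur with KMT2C and KMT2D, were at 0.21 and 0.12 and did not pass. The NCOA6 locus overlaps TP53INP2 by 9101 bases on the opposite strand, and TP53INP2 was called lower (log2 fold change -0.57, edgeR adjusted p = 0.0219).

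DOT1L (ENSG00000104885, chr19:2163933-2232578, plus strand), the H3K79 methyltransferase, which has no SET domain, had the second largest rise. Its level was 13.4, 12.3 and 12.9 FPKM in siPOLR1F, against 6.76, 8.18 and 8.03 FPKM in NC. The lowest siPOLR1F library lay well above the highest NC library, and the level was 1.69 times that of NC (log2 fold change 0.76, SE 0.08; edgeR adjusted p = 0.000685). The locus overlaps AP3D1 by 536 bases and PLEKHJ1 by 2495 bases on the opposite strand. Mean counts over the 6 libraries were 15900 for AP3D1 and 3940 for PLEKHJ1, beside 8190 for DOT1L. Both neighbours were also called higher, with log2 fold changes of 0.33 (edgeR adjusted p = 0.0082) and 0.29 (0.0206), and without a stated strand setting reads of the overlap cannot be told apart.

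Of 7 H3K9 methyltransferases 2 rose and 0 fell, beside 10.3% higher and 6.94% lower among all tested genes. EHMT1 (ENSG00000181090, chr9:137618992-137870016, plus strand), which forms a dimer with EHMT2 and makes H3K9 dimethylation, was at 4.43, 4.34 and 4.52 FPKM in siPOLR1F, against 3.08, 3.33 and 3.43 FPKM in NC (log2 fold change 0.44, SE 0.06; edgeR adjusted p = 0.00192). Its partner EHMT2 did not pass (log2 fold change 0.09, SE 0.06; edgeR adjusted p = 0.315). SUV39H2 (ENSG00000152455, chr10:14878820-14904315, plus strand), an H3K9 trimethylase of heterochromatin, was at 4.65, 4.61 and 5.52 FPKM in siPOLR1F, against 3.65, 3.94 and 3.34 FPKM in NC (log2 fold change 0.44, SE 0.11; edgeR adjusted p = 0.0255). The SUV39H2 call ended without NC replicate 1 (0.0536), NC replicate 3 (0.0804), siPOLR1F replicate 1 (0.0542) or replicate 3 (0.103), within 0.00251 to 0.103 over its alternatives, and its locus overlaps DCLRE1C by 6957 bases on the opposite strand. SUV39H1 (ENSG00000101945, chrX:48695554-48709016, plus strand), the paralogue of SUV39H2 and the most abundant gene of the group, was at 14.5, 14.8 and 16.6 FPKM in siPOLR1F and 13.8, 16.4 and 16.0 FPKM in NC, with overlapping groups (log2 fold change 0.00, SE 0.08; edgeR adjusted p = 0.993). SETDB1, which silences retroelements with KRAB zinc finger proteins, was at 0.01, SETDB2 at -0.20 and PRDM2 at -0.11, and none of these 3 passed. The SETDB1 locus overlaps CERS2 by 4153 bases on the opposite strand. CERS2 held more counts than SETDB1 and was called higher (log2 fold change 0.28, edgeR adjusted p = 0.0119), and reads of the overlap cannot be told apart. The EHMT and SUV39H pairs each held 1 gene that passed and 1 that did not, and the difference between paralogues was not tested.

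PRC2, which methylates H3K27 and holds developmental genes silent, was measured through its 4 core genes. Of these 0 were called by edgeR, DESeq2 or limma, with 0 at an unadjusted p under 0.05. Over all tested genes edgeR called 10.3% higher and 6.94% lower, so a count of 0 among 4 genes says little. SUZ12 (ENSG00000178691, chr17:31937007-32001038, plus strand), the scaffold subunit, was at 9.74, 7.75 and 8.22 FPKM in siPOLR1F, against 10.5, 8.33 and 7.74 FPKM in NC (log2 fold change -0.04, SE 0.13; edgeR adjusted p = 0.869). Replicate 1 was the highest library in both groups. The catalytic subunits EZH2 and EZH1 had log2 fold changes of 0.15 and 0.06, and EED, which reads the finished mark, of -0.10. A pseudogene copy of SUZ12 held 441 to 473 counts in siPOLR1F and 411 to 549 counts in NC, beside 3573 to 4424 counts of SUZ12 in siPOLR1F and 3524 to 4832 counts in NC, and a division of reads between the copies was not tested.

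The H3K36 enzymes all had positive estimates that did not pass. These ran from 0.02 for SETD2, the trimethylase that travels with RNA polymerase II, to 0.19 for NSD1. Of the 5 genes 1 had an unadjusted p under 0.05, and edgeR, DESeq2 and limma called 0. Over all tested genes edgeR called 10.3% higher and 6.94% lower. NSD2 (ENSG00000109685, chr4:1871393-1982207, plus strand), the dimethylase activated by translocation in myeloma, held the highest counts of the 41 genes. Its level was 12.8, 13.4 and 13.3 FPKM in siPOLR1F, against 12.5, 12.8 and 13.1 FPKM in NC (log2 fold change 0.04, SE 0.04; edgeR adjusted p = 0.525). None of the 3 H4K20 enzymes was called by edgeR, DESeq2 or limma, beside the same shares of all tested genes, and 1 had an unadjusted p under 0.05. KMT5A (ENSG00000183955, chr12:123384132-123409353, plus strand), the monomethylase required for S phase and mitosis, was at 11.3, 11.6 and 12.5 FPKM in siPOLR1F, against 9.94, 11.1 and 10.8 FPKM in NC (log2 fold change 0.16, SE 0.07; edgeR adjusted p = 0.153). Counts of KMT5A may be shared with 3 pseudogene copies in the table, whose counts per library reached 103 in siPOLR1F and 76 in NC. KMT5C, which makes the higher methylation states, had the lowest estimate of all members at -0.28 (SE 0.12; edgeR adjusted p = 0.128), and its 3 siPOLR1F values lay below the 3 NC values.

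Among the SMYD and divergent SET proteins, SMYD5 (ENSG00000135632, chr2:73214222-73227221, plus strand) was called higher. It was at 17.5, 17.3 and 18.6 FPKM in siPOLR1F, against 12.7, 14.7 and 14.7 FPKM in NC (log2 fold change 0.35, SE 0.07; edgeR adjusted p = 0.0149). Without siPOLR1F replicate 3 it did not pass (edgeR adjusted p = 0.0632, within 0.000282 to 0.0632 over its alternatives). SETD5, whose own enzyme activity is disputed, did not overlap between the groups (log2 fold change 0.18; edgeR adjusted p = 0.0863; DESeq2 adjusted p = 0.0456, the lowest over its alternatives, which reached 0.237). SMYD2, SMYD3 and KMT2E had log2 fold changes of -0.13, 0.03 and -0.06.

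In 6 of the 12 called genes the transcript holds the heptamer TCGGAGA, which was taken from an earlier scan of transcripts made on these libraries. Its presence was read from 1 GENCODE release 29 transcript per gene, that with the longest coding sequence, on the transcript strand. Counting coding sequence and 3′ UTR, 10 of the 41 members (24.4%) had it, as did 1087 of the 11322 tested genes searched (9.60%). Because the motif was taken from these data, its link to higher genes is a description. The sites in the called members are shown first, because the 3 largest rises are among them, each as 25 bases of the transcript with the heptamer in capitals.
SETD7, 3′ UTR: gtaccacatTCGGAGAtgccaaatg
EHMT1, 3′ UTR: ctgtcaggcTCGGAGAggtcaggag
DOT1L, coding sequence: agccagatcTCGGAGAagcagaggc
SETD1A, coding sequence: gagtcctccTCGGAGAaggatgagg
KMT2A, coding sequence: tattcagtgTCGGAGAgaagttttg
KMT2C, coding sequence: cagctccagTCGGAGAatccagaaa

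In the genome these heptamers lie at chr4:139511370-139511376 (minus strand) in SETD7, chr9:137835468-137835474 (plus strand) in EHMT1, chr19:2214564-2214570 (plus strand) in DOT1L, chr16:30969454-30969460 (plus strand) in SETD1A, chr11:118472759-118472765 (plus strand) in KMT2A and chr7:152138814-152138820 (minus strand) in KMT2C. The other 4 carriers were not called, and 2 of their sites are shown for comparison.
PRDM2, 3′ UTR: gtccatgtcTCGGAGAaacgggtga
KMT2E, coding sequence: acagcagcgTCGGAGAcacagaact

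Those 2 sites lie at chr1:13824135-13824141 (plus strand) in PRDM2 and chr7:105101993-105101999 (plus strand) in KMT2E, and their genes had log2 fold changes of -0.11 and -0.06. Over all 4 carriers that were not called the log2 fold changes ran from -0.13 to 0.14. A site in the 3′ UTR was thus present in the member with the largest rise and in 1 with a negative estimate. Of the 10 members with the heptamer 6 were called higher, and their median log2 fold change was 0.36. Among the 31 without it 6 were called higher (KMT2B, KMT2D, SETD1B, RBBP5, SUV39H2 and SMYD5), or 19.4%, with a median of 0.09. In SETD1B and SUV39H2 the transcript searched had a 3′ UTR of only 3 bases, so a site in a longer 3′ UTR would have been missed. In all tested genes searched, 27.0% of 1087 with the heptamer and 10.1% of 10235 without it were called higher, and 4.42% and 8.16% were called lower. Of the 7 H3K4 enzymes 4 carry it (SETD7, SETD1A, KMT2A and KMT2C). A second heptamer of the same scan, CCGACTT, lay in the coding sequence of 4 members (EHMT2, KMT2C, PRDM2 and SETD1A), or 9.76%, beside 4.99% of the tested genes searched. It lay in the 3′ UTR of 0 members. Counting coding sequence and 3′ UTR, 6.47% of the tested genes searched had it. Of those genes 15.7% were called lower and 10.7% higher, against 7.25% and 11.8% of the genes without it. None of the 4 members was called lower, and 2 of them (KMT2C and SETD1A) were called higher.

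A long coding sequence offers more positions for a heptamer, and these genes are long. The median coding length was 3207 bases over the members and 1395 bases over all tested genes searched, and it was 4866 bases in the 10 carriers and 2241 bases in the 31 others. Of 1357 tested genes with a coding sequence at least as long as the members' median, 19.5% carried the heptamer and 17.5% were called higher. Among these 1357 genes, 31.4% of 264 carriers and 14.2% of 1093 others were called higher. The heptamer was taken from these same libraries, so this split is a description and no check of the motif. The log2 fold change had a Spearman correlation with coding length of 0.36 over the 41 members (-0.13 over the 10 carriers and 0.40 over the 31 others) and 0.14 over 11322 genes, given as a description, since all points come from the same 6 libraries. The part of the heptamer and of coding length in the members' changes was not tested.

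**Figure D3:**
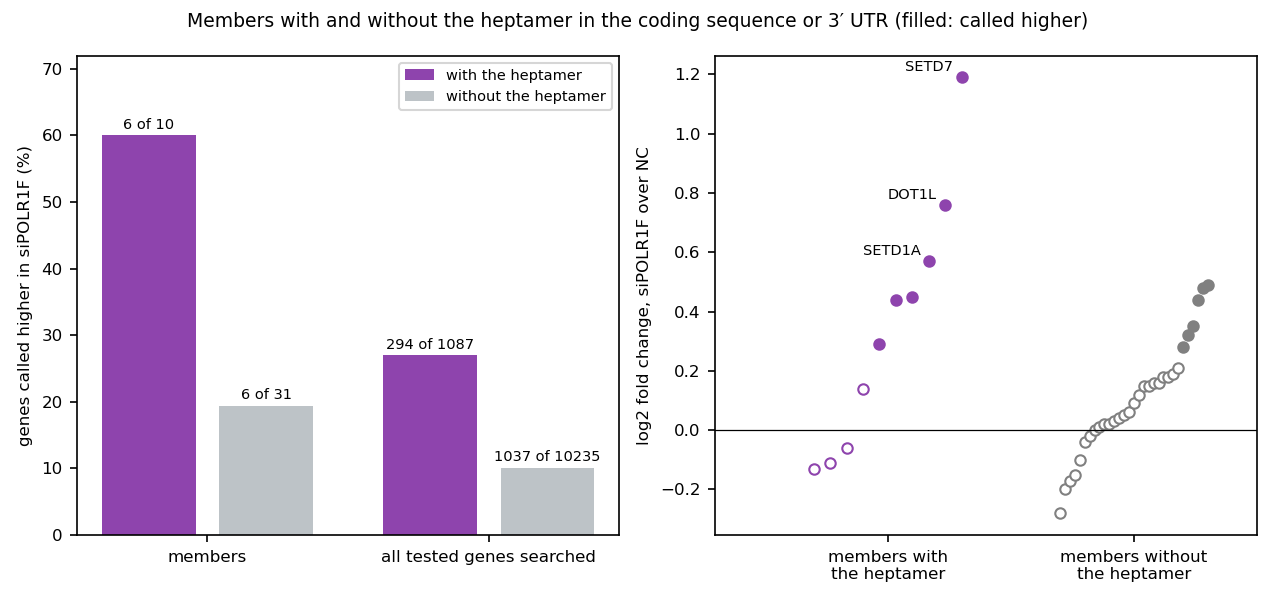
Left, the share of genes called higher in siPOLR1F among those with and without the heptamer in the coding sequence or 3′ UTR, for the 41 members and for all 11322 tested genes searched (counts above the bars). Right, the log2 fold change of each member with and without it. The 3 largest values, SETD7, DOT1L and SETD1A, belong to carriers. The heptamer was taken from these same libraries, so both panels are a description.

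The members' levels spanned a wide range. In NC, mean FPKM ran from 0.603 for KMT2C to 28.3 for WDR5, with a median of 5.07 over the members and 4.72 over all tested genes. WDR5 (28.3 ± 1.98 FPKM, SD, n = 3) stood above MEN1 (15.7 ± 1.51), while MEN1 and the next gene, SUV39H1 (15.4 ± 1.38), differed by less than their SDs. WDR5 and MEN1, which encode partners, headed the order, and the 7 H3K4 enzymes lay between 0.603 FPKM for KMT2C and 6.16 FPKM for KMT2B. FPKM depends on the gene length the authors divided by, which can be worked back from the deposited counts and FPKM. In 8 members that length was over 2 times the longest GENCODE transcript, reaching 53665 bases against 16862 bases in KMT2C and a ratio of 3.64 in SETD5, 3.16 in SMYD3 and 2.96 in EZH2.

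On a second scale, CPM (each gene's share of its library's counts) divided by the kilobases of the longest transcript, the order changed. Mean values in NC were 36.5 for WDR5 and 34.0 for NSD2, which took place 7 of 41 by FPKM. SETD5 moved to place 4 of 41, with 23.1. EZH2 stood at 15.9 and EZH1 at 8.60 per kilobase, while their FPKM in NC were 4.81 ± 0.276 and 5.08 ± 0.129. Whether EZH2 or EZH1 RNA was the higher in these cells therefore depended on the length used. KMT2C had 2.15 per kilobase and SETDB2 was then the lowest, at 1.17. Fold changes computed from counts do not depend on this length, since it is the same in all 6 libraries. Those of limma on log2(FPKM + 1) do, because a fixed amount is added to FPKM. For KMT2C the log2 fold change was 0.45 with edgeR and 0.18 with that limma fit. The FPKM filters depend on the length as well.

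**Figure D4:**
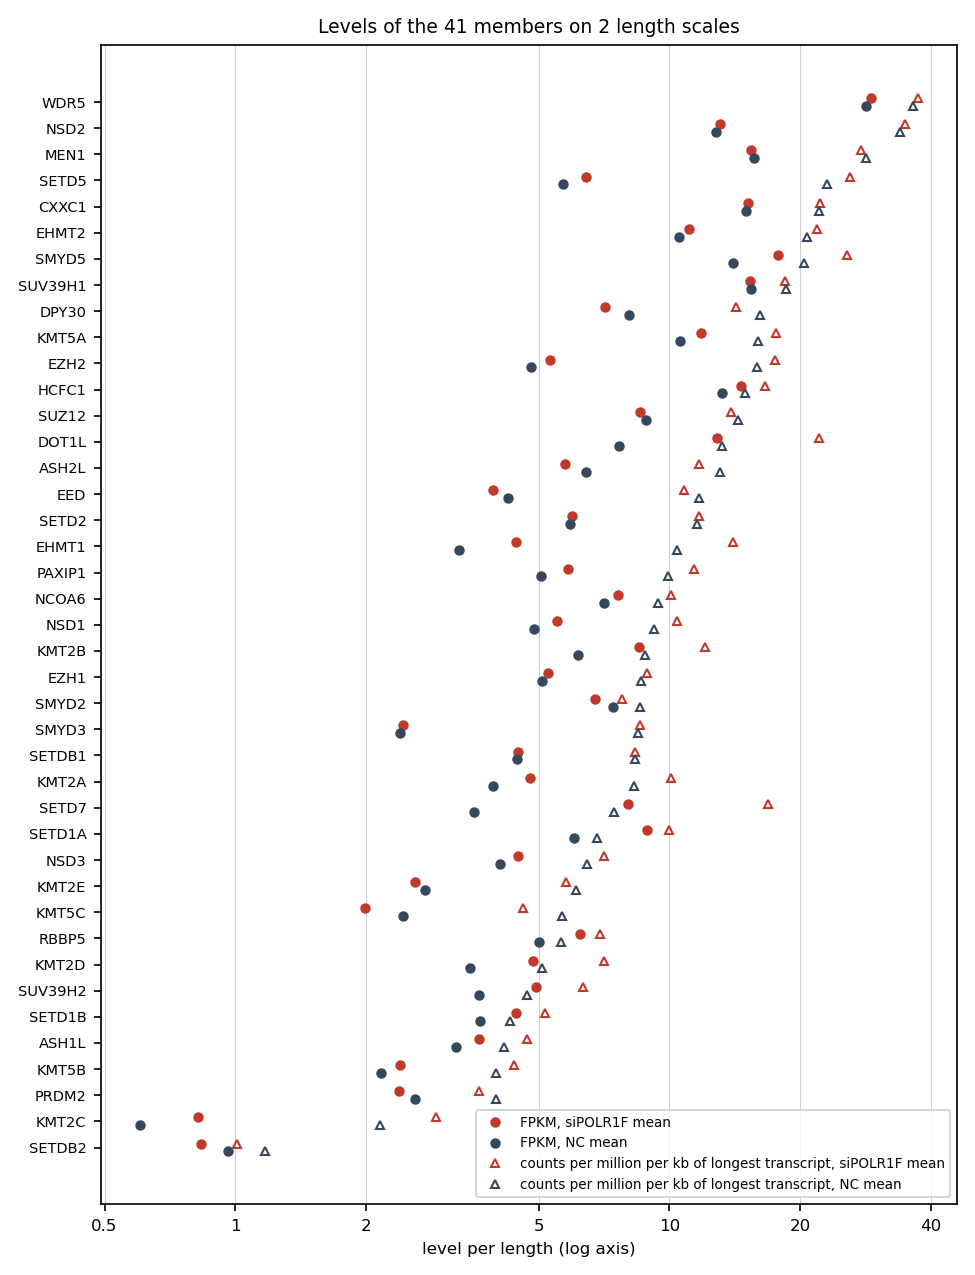
Mean level of each member per length in siPOLR1F and NC (n = 3 each; log axis), as deposited FPKM (filled circles) and as CPM per kilobase of the longest GENCODE transcript (open triangles), ordered by the second scale in NC. WDR5 leads on both scales, and SETD5, KMT2C and SMYD3 lie farthest to the right on the second relative to the first.

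Around these enzymes work demethylases, readers, accessory subunits and the enzymes of the methyl donor, covered by 9 lists of 108 genes, of which 95 were tested. Of these 15 were called higher and 1 lower, beside 10.3% and 6.94% of all tested genes, and the median of their log2 fold changes was 0.08. The count called higher was 8 without siPOLR1F replicate 1, siPOLR1F replicate 3 or NC replicate 3. Among 21 histone lysine demethylases, which remove the marks, 4 rose and 1 fell (10.3% and 6.94% over all tested genes). KDM2B, a CpG-binding H3K36 demethylase that also recruits Polycomb complexes, was at 2.73, 2.36 and 2.47 FPKM in siPOLR1F, against 1.64, 1.40 and 1.35 FPKM in NC (log2 fold change 0.79, SE 0.10; edgeR adjusted p = 0.00167). KDM6B, which removes H3K27 methylation, rose by 0.63 on the log2 scale (edgeR adjusted p = 0.0151), and KDM2A, the paralogue of KDM2B, by 0.39 (0.0170). KDM6B did not pass without siPOLR1F replicate 1 (0.0556) or replicate 2 (0.0509), within 5.91e-05 to 0.0778 over its alternatives, and KDM2A not without siPOLR1F replicate 3 (0.0675), within 0.000193 to 0.0872. The one gene that fell, KDM5B, which removes H3K4 trimethylation, was named after its value was seen. It was at 1.95, 2.19 and 1.96 FPKM in siPOLR1F, against 2.36, 2.44 and 2.64 FPKM in NC (log2 fold change -0.28, SE 0.07; edgeR adjusted p = 0.0295). The KDM5B call ended without siPOLR1F replicate 1 (0.0960), siPOLR1F replicate 3 (0.108), NC replicate 2 (0.0584) or NC replicate 3 (0.0913), within 0.00441 to 0.108.

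Among 9 tested accessory genes of PRC2, 2 rose and 0 fell, beside 10.3% higher and 6.94% lower among all tested genes. The same shares apply to the other lists of this paragraph. LCOR, which encodes an isoform that binds PRC2, rose by 0.88 on the log2 scale (edgeR adjusted p = 0.00249). JARID2, a subunit that helps place the complex, rose by 0.44 (0.00387). Of 8 other COMPASS-associated genes PAGR1, a subunit of the KMT2C and KMT2D complexes, rose by 0.41 (edgeR adjusted p = 0.0130) and BOD1 by 0.25 (0.0381). BOD1 passed when NC replicate 2 was left out and not without any other library (edgeR adjusted p 0.0730 to 0.137, within 0.00936 to 0.137 over its alternatives). The elongation factors ELL and AFF4, 2 of 7 DOT1L-associated genes, rose by 0.42 (edgeR adjusted p = 0.0149) and 0.34 (0.0142). ELL did not pass without siPOLR1F replicate 1 (0.0510, within 0.000142 to 0.0630), nor AFF4 without NC replicate 3 (0.0563, within 0.000188 to 0.0563). Single genes rose among 12 partners and readers of H3K9 (CDYL, 0.32), 11 other SET and PRDM genes (PRDM4, 0.36) and 9 arginine methyltransferases (CARM1, 0.19). CDYL did not pass without NC replicate 3 (0.0520) or siPOLR1F replicate 3 (0.0758), within 0.000824 to 0.0758. PRDM4 did not pass without siPOLR1F replicate 1 (0.0579), siPOLR1F replicate 3 (0.0690) or NC replicate 3 (0.0605), within 0.000409 to 0.0742. CARM1 did not pass without any one of the 6 libraries (0.0572 to 0.155, within 0.0161 to 0.155).

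Of 6 tested genes of DNA methylation 2 rose, beside 10.3% of all tested genes. TET3, which oxidises methylcytosine, was at 3.92, 3.26 and 4.09 FPKM in siPOLR1F, against 1.71, 2.11 and 1.61 FPKM in NC (log2 fold change 1.06, SE 0.12; edgeR adjusted p = 0.00114). UHRF1, which brings DNMT1 to replicated DNA, rose by 0.29 (edgeR adjusted p = 0.0446), and passed without NC replicate 2 but not without any other library (0.0761 to 0.146, within 0.0052 to 0.172). Among 12 genes that supply the methyl donor 0 were called by edgeR or limma in either direction, DESeq2 called 1 lower, and 2 had an unadjusted p under 0.05. The most abundant of them, MAT2A, which makes S-adenosylmethionine, was at 85.3 ± 4.99 FPKM in siPOLR1F and 87.4 ± 3.74 FPKM in NC (SD, n = 3 each). The heptamer was present in 16 of the 95 tested genes of these lists, of which 6 were called higher (KDM2A, KDM2B, LCOR, AFF4, ELL and TET3), and 9 of the other 79 were called higher. Over all tested genes searched, 27.0% with the heptamer and 10.1% without it were called higher. The heptamer was taken from these data, so the counts are a description.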

How the data were processed

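The tools named per the submitters' processing notes are fastp, HISAT2 and StringTie, and the build is GRCh38 (hg38). Their versions, the annotation and the strand setting were not given in the sources used. Per the labels' protocols, 1 µg of total RNA entered each poly(A) library and reads were paired, 150 bases long. The authors deposited whole-number counts and FPKM per gene and library. The counts were used as deposited, with groups and replicate numbers taken from the labels. They were tested with edgeR's quasi-likelihood test (version 4.0.16 under R 4.3.3; glmQLFit, glmQLFTest, TMM normalization), two-sided, over genes whose mean FPKM reached 0.5, with Benjamini-Hochberg adjustment at 0.05. The SE is the size of the log2 fold change divided by the square root of F. The 13564 tested genes took up 99.4% of all counts (biological coefficient of variation 0.137). The test was checked on simulated counts. The members and lists were chosen with earlier results of these data known. Library values are given for members past the test and for the most abundant member of each role in NC, and up to 3 called genes per related list are named, or the most abundant where none passed. The length behind FPKM was scaled on 842 genes with 1 transcript. This scale and the heptamer search were chosen after seeing the data. The sequence of 1 site is not reported here. Alternatives were DESeq2 1.42.0, limma 3.58.1 on log2(FPKM + 1) and log2(FPKM + 0.1), RLE factors, library size alone, mean FPKM filters of 0.1, 5 or none, a block for the replicate number, and omission of each library in turn. Chi-square tests of counts found no 2 libraries of a group within sampling noise (20.5 to 44.0 per degree of freedom).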

Additional observations from a re-analysis of the deposited data

How the results depend on the processing

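The count of members called higher was 12, and between 6 and 11 when 1 library was left out (6 without siPOLR1F replicate 3, 7 without siPOLR1F replicate 1). It was 6 at a mean FPKM of at least 5, where 25 members were tested, and 5 with no filter, where 33539 genes were tested. The H3K4 enzymes gave 7, then 4 to 6 without 1 library and 5 with limma at both pseudocounts. They gave 3 at a mean FPKM of at least 5 (3 tested) and 3 with no filter. SETD7 reached the filter of 5 only through siPOLR1F, with a mean of 8.03 FPKM there and 3.54 FPKM in NC. No member was called lower under any of the 15 alternatives. SETD7, DOT1L, SETD1A, EHMT1 and KMT2A kept their call under each alternative that tested them, and the other 7 called members lost it under at least 1. Over all tested genes, leaving out 1 library gave 730 to 1326 higher and 423 to 841 lower, and no filter gave 663 and 313. Of the related genes 15 were higher and 1 lower; without 1 library 8 to 14 and 0 to 1, with no filter 4 and 0. The lower count was 2 with DESeq2, library size alone and the replicate block, and 0 at a mean FPKM of at least 0.1 or 5 and with limma at both pseudocounts. The cause of these shifts was not tested.

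Uncalled genes near 0 changed sign without passing any test. With 1 library left out, log2 fold changes ranged from -0.004 to 0.11 for WDR5, -0.08 to 0.05 for MEN1, -0.03 to 0.09 for CXXC1, -0.07 to 0.05 for SUV39H1, -0.03 to 0.06 for SETDB1, -0.15 to 0.10 for SUZ12, -0.07 to 0.07 for SETD2, -0.04 to 0.14 for SMYD3, -0.20 to 0.04 for KMT2E and -0.08 to 0.01 for MAT2A. They were 0.003 for MEN1 at a mean FPKM of at least 0.1, -0.01 for SUV39H1 with library size alone and at a mean FPKM of at least 5, -0.004 and -0.005 for SUV39H1 with limma, and -0.003 for SETDB1 with library size alone.

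Same-numbered libraries deviated together for replicates 1 and 3 (r = 0.293 and 0.274), and the crossed pairs of replicates 1 and 3 deviated apart (-0.275 and -0.277). Replicate 2 was near 0 (0.016), which cannot decide on pairing, since deviations were taken from means of 3 libraries. Each library correlated best with its own number, and the main test did not take the numbers as pairs. The biological coefficient of variation was 0.137 in the main fit and 0.117 with the replicate block. With the replicate block 12 members, 7 H3K4 enzymes, 1517 of all genes and 17 related genes were higher, and 1125 of all genes lower. Depth was alike in all libraries.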
